A study of Rattus norvegicus with 6 samples.

Results

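The subject is a set of 10 genes for nuclear receptors with metabolic roles in the absorptive cells of the gut, the enterocytes. They are Nr1i2, Nr1i3, Hnf4a, Hnf4g, Nr5a2, Ppara, Ppard, Pparg, Rxra and Esrra, chosen by name with earlier results of these data known. All 10 were measured, each by 1 row of the array table, among 14506 genes tested. Their expression was measured in the ileum of 6 Zucker fa/fa rats, an obese strain that lacks a working leptin receptor, 20 weeks old at surgery. In 3 rats a duodenum-jejunum bypass (DJB) joined the distal jejunal limb to the start of the duodenum, so that food skipped most of the duodenum and the proximal jejunum, while the limb carrying bile and pancreatic juice was rejoined further down. In the 3 sham rats the cuts were rejoined in place and food kept its normal path. Ileum was collected 14 days after surgery, and each rat gave 1 Affymetrix Rat Gene array. The values are log2 levels after RMA normalisation, all changes are DJB minus sham, and each array is named by its group and the rat's number in the labels. All 6 rats carry the fa/fa genotype, so lean rats are not part of the comparison, and the tissue was whole ileum, in which fewer cells of a type and less RNA per cell cannot be told apart.

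Nuclear receptors are transcription factors that bind DNA directly, and many of them are switched on by small lipophilic ligands. PXR, CAR and the PPARs pair with RXR, of which Rxra encodes the alpha form, while HNF4 proteins pair with each other and LRH-1, the product of Nr5a2, binds as a single molecule. The basic DNA word they read is the hexamer AGGTCA, singly or as a direct repeat. In the small intestine HNF4 proteins maintain enterocyte identity and lipid handling, PPARs control fatty acid use, and PXR and CAR, the products of Nr1i2 and Nr1i3, induce enzymes and pumps that clear drugs, bile acids and other foreign or toxic compounds.

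The upstream DNA of the receptor gene that changed is shown first, beside that of a receptor gene holding the hexamer. The sequences are RefSeq windows of assembly GRCr8, the 250 bases before the annotated start, 5′ to 3′ on the gene's strand, with AGGTCA on either strand in capitals. The Nr1i3 window is chr13:86165170-86165419 on the plus strand, and the Nr5a2 window is chr13:50984939-50985188 on the minus strand.
Nr1i3: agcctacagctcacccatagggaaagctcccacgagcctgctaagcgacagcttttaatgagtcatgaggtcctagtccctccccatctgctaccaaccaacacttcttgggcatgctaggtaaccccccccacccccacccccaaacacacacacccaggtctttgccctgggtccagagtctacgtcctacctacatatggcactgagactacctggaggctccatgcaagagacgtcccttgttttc
Nr5a2: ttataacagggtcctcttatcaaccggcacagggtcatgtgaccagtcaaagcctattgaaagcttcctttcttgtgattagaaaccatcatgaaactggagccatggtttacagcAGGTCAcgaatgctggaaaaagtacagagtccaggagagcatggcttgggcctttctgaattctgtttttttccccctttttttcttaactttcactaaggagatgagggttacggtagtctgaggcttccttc
Of the 10 receptor genes, 8 had such windows, 10 windows in all. Nr5a2 was the 1 gene of the 8 with the hexamer, against 14.1% of all 33469 windows. A direct repeat of the hexamer with any 1 base between the copies, the form read by PPAR with RXR and by HNF4, was sought on both strands. It was in the windows of 0 of the 8 genes and in 0.0508% of all windows. The repeat with any 4 bases between the copies was in those of 0 of the 8 genes and in 0.00299% of all windows. These matches describe letters in a short window and say nothing about binding.

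Before the receptors are compared, 3 features of the arrays bear on them. The enterocyte markers averaged 12.25 to 12.59 on the sham arrays and 12.29 to 12.45 on the DJB arrays, and the distal ileum markers 11.79 to 12.28 and 12.78 to 13.02, so the labelled tissue matched its markers. As means over the 6 arrays, all 6 liver markers lay under the median of all rows (6.11). The liver list averaged 4.55 to 5.25 in sham and 4.43 to 4.65 after DJB, though Alb reached 6.84 on sham 2. Array DJB 1 had a median of 6.19 against 6.08 to 6.11 on the other arrays, and it was the highest DJB array for 57.6% of all genes and for 6 of the 10 receptors. DJB 3 was the lowest DJB array for 9 of the 10 receptors, against 43.5% of all genes. Sham 3 was the highest sham array for 7 of the 10, against 38.5% of all genes.

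After the bypass, Nr1i3, which encodes the constitutive androstane receptor CAR, fell 1.97-fold, and it was the 1 receptor of the 10 that passed the test. A gene is said to rise or fall where limma gave it an adjusted p under 0.05 with all 14506 genes tested. Of all genes, 0.772% met this, 0.393% in the higher and 0.379% in the lower direction. Counting Nr1i3, 7 receptors had a lower and 3 a higher mean after DJB, beside 38.3% of all genes with a lower mean. Of the 9 receptors that did not pass, Pparg had the largest difference. In 5 receptors the DJB and sham values did not overlap, lower for Nr1i3, Pparg, Esrra and Hnf4g and higher for Hnf4a. Of all genes, 21.1% had groups that did not overlap, 6.56% in the lower and 14.5% in the higher direction. The median change of the 10 receptors was -0.10, and that of all genes was 0.05. As the receptors were chosen with earlier results of these data known, their counts beside these shares are a description.

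**Figure D1:**
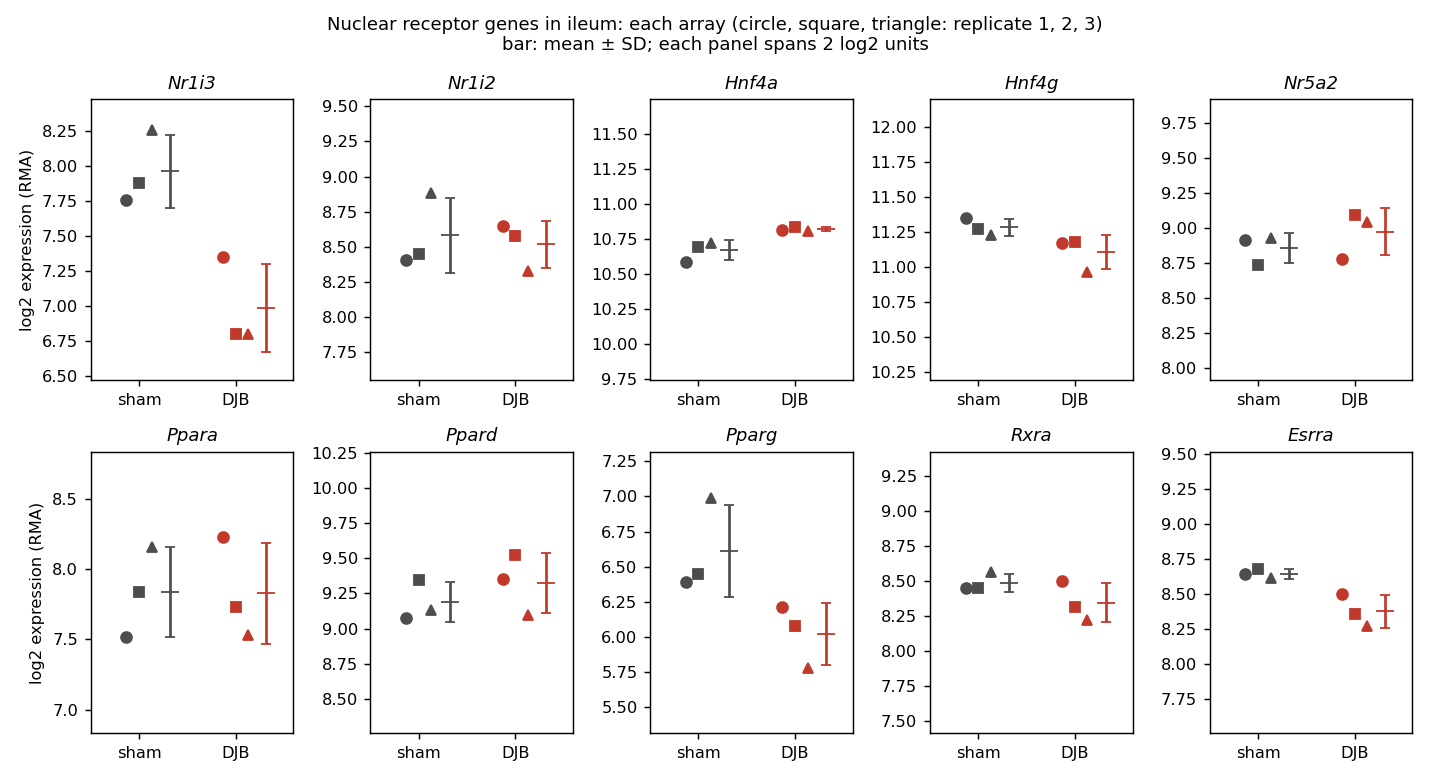
Log2 expression of each of the 10 receptor genes on every array, with sham in grey, DJB in red, the replicate given by the symbol, and the mean ± SD drawn to the right of each group. Panels span the same range of log2 units but are centred on each gene's own mean. The DJB values of Nr1i3 lie wholly below its sham values, while those of Nr1i2 and Ppara lie among them.

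CAR is a sensor of foreign compounds that can act without a bound ligand. The levels of Nr1i3 were 7.76, 7.87 and 8.25 on sham arrays 1 to 3 and 7.35, 6.80 and 6.80 on DJB arrays 1 to 3. Every DJB value lay under every sham value, and DJB 1 stood between the other DJB arrays and the sham group. The sham mean was 7.96 ± 0.26 and the DJB mean 6.98 ± 0.31 (both SD, n = 3), which differ by -0.98 ± 0.18 (SE, limma adjusted p = 0.0497, 95% interval -1.38 to -0.57). Among the 112 genes called, it ranked 109 by p. The call ended when sham 1, sham 2, sham 3, DJB 2 or DJB 3 was left out (adjusted p = 0.0795, 0.125, 0.167, 0.174 and 0.119), with changes from -0.83 to -1.08, and when all 29214 rows of the table were tested (adjusted p = 0.0977).

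Nr1i2 encodes PXR, the closest relative of CAR and a receptor for many drugs and for secondary bile acids. Its levels were 8.40, 8.45 and 8.89 on the sham arrays and 8.65, 8.57 and 8.33 on the DJB arrays. The groups overlapped, with both the highest and the lowest value set by a replicate 3 array. The change was -0.06 ± 0.15 (SE), and its 95% interval of -0.40 to 0.27 leaves room for a modest change either way. Relative to Nr1i2 on the same array, Nr1i3 was lower by 0.92 ± 0.14 (SE) after DJB, with no overlap between the groups. The exact two-sided permutation test of this within-array difference gave p = 0.1, the smallest that 3 against 3 arrays allow.

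The 3 genes whose pattern over the 6 arrays lay closest to that of Nr1i3 were Apoa4, Appl2 and Cgref1, measured as the root mean square difference of values centred on each gene's mean. These differences were 0.10, 0.12 and 0.12. Apoa4, which encodes an apolipoprotein of chylomicrons and also belongs to the HNF4 target list, stood at 11.73, 11.89 and 11.98 in sham and 11.37, 10.75 and 10.75 after DJB. These 3 genes were picked for this likeness on the same arrays, which largely fixes their order over the arrays and their changes, so both are a description. Appl2 changed by -1.01 ± 0.15 (SE, adjusted p = 0.0222) and Cgref1 by -1.10 ± 0.18 (SE, adjusted p = 0.0295). Neither was called when sham 2, sham 3, DJB 2 or DJB 3 was left out, nor was Cgref1 without sham 1, with adjusted p reaching 0.103 for Appl2 and 0.142 for Cgref1. Apoa4 did not pass (adjusted p = 0.0511), but was called without DJB 1 (adjusted p = 0.00444).

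**Figure D2:**
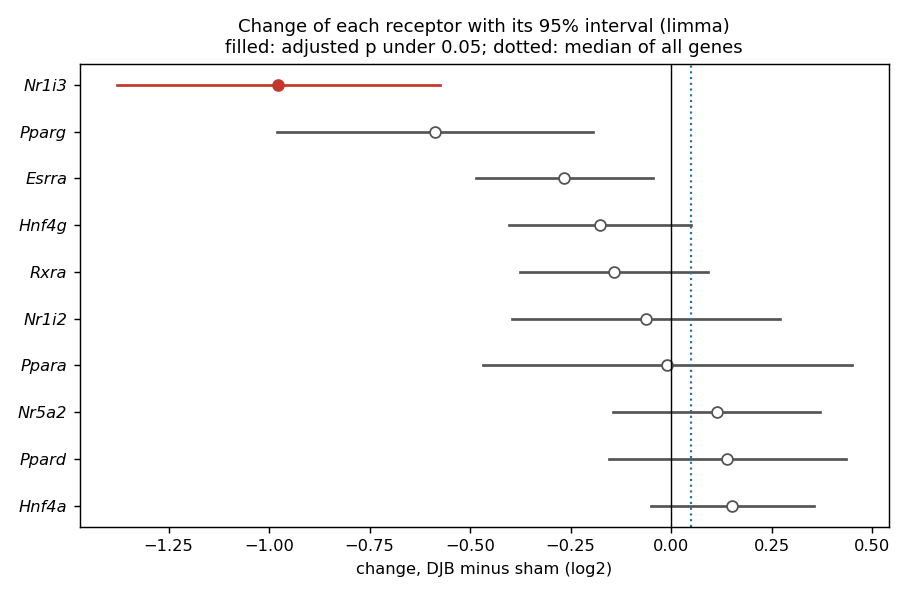
Change of each receptor gene in log2 units (DJB minus sham) with its 95% interval from the limma fit, filled where the adjusted p was under 0.05. The interval of Nr1i3 runs from -1.38 to -0.57, those of Pparg and Esrra also lie below 0, and the other 7 include 0.

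Hnf4a and Hnf4g encode the HNF4 factors of the gut epithelium. Hnf4a stood at 10.59, 10.69 and 10.72 in sham and at 10.81, 10.84 and 10.81 after DJB. Its DJB arrays lay within a narrow band just above all sham arrays, with an SD of 0.016 against 0.071 in sham. The change of 0.15 ± 0.09 (SE) did not pass (adjusted p = 0.482, 95% interval -0.05 to 0.36). Hnf4g went the other way, from 11.35, 11.27 and 11.23 in sham to 11.17, 11.18 and 10.97 after DJB. All its DJB values lay just under the sham values, and the change of -0.18 ± 0.10 (SE) did not pass (adjusted p = 0.460, 95% interval -0.40 to 0.05). Within arrays, Hnf4g was lower relative to Hnf4a by 0.33 ± 0.10 (SE) after DJB, again without overlap and at the smallest exact permutation p of 0.1.

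Nr5a2 encodes LRH-1, a receptor that acts in bile acid and cholesterol control and in local steroid synthesis in the crypts. It stood at 8.92, 8.74 and 8.93 in sham and at 8.78, 9.09 and 9.04 after DJB. DJB 1 lay among the sham values and the other DJB arrays lay above them. The change was 0.11 ± 0.11 (SE, adjusted p = 0.708, 95% interval -0.15 to 0.37).

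Among the PPAR genes, Pparg showed the largest difference. PPAR gamma is the master factor of fat cells and is also present in gut epithelium, mainly of the colon. Its levels were 6.39, 6.45 and 6.99 in sham and 6.21, 6.08 and 5.78 after DJB. The DJB values lay wholly below the sham values, sham 3 stood above the other sham arrays, and 5.78 on DJB 3 was the lowest. The change of -0.59 ± 0.17 (SE) had an unadjusted p of 0.00814 but missed the threshold (adjusted p = 0.184, 95% interval -0.98 to -0.19). Its DJB mean of 6.02 lay just under the median of all rows (6.11), where fold changes can be understated. The mean of Pparg over the 6 arrays, 6.31, lay above that median.

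Because Pparg marks fat cells, its values were set beside 7 adipocyte genes. None of the 7 passed the test, 4 had a higher and 3 a lower mean after DJB, and the list mean ran from 6.003 to 6.39 on the sham arrays and from 6.02 to 6.32 on the DJB arrays, nearly the same range. In 4 of the 7 the level lay under the median of all rows. Cidec, a lipid droplet gene, stood at 7.24, 7.68 and 8.35 in sham and at 7.38, 7.16 and 6.89 after DJB. As with Pparg, its highest value was on sham 3 and its lowest on DJB 3. The change of Cidec was -0.62 ± 0.25 (SE, adjusted p = 0.312) and that of Lipe, the hormone-sensitive lipase gene, was -0.25 ± 0.16 (SE, adjusted p = 0.512). The other adipocyte genes did not follow Pparg, with Adipoq at 0.16, Plin1 at 0.14, Retn at 0.13, Cfd at 0.11 and Lep at -0.03. The part of fat tissue in the Pparg difference was not tested.

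Ppara, whose product drives fatty acid oxidation during fasting and fat intake, stood at 7.52, 7.84 and 8.16 in sham and at 8.23, 7.73 and 7.53 after DJB. The groups covered nearly the same range, and the change was -0.01 ± 0.20 (SE, 95% interval -0.47 to 0.45). Its sign turned without sham 3, DJB 2 or DJB 3. Ppard, the widely expressed PPAR delta gene, stood at 9.08, 9.35 and 9.13 in sham and at 9.36, 9.52 and 9.10 after DJB. These groups overlapped too, and the change was 0.14 ± 0.13 (SE, 95% interval -0.15 to 0.43). Relative to Ppard on the same array, Pparg was lower by 0.73 ± 0.24 (SE), and relative to Ppara it was lower by 0.58 ± 0.14 (SE), each without overlap and with an exact permutation p of 0.1. For Ppara relative to Ppard the change was -0.15 ± 0.27 (SE, exact permutation p = 0.5). In all, 5 such pairs were compared.

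Rxra, the shared partner gene, stood at 8.45, 8.45 and 8.56 in sham and at 8.50, 8.32 and 8.22 after DJB. DJB 1 lay among the sham values and the others below them, and the change was -0.14 ± 0.10 (SE, adjusted p = 0.577, 95% interval -0.38 to 0.09). Esrra encodes ERR alpha, an orphan receptor that controls mitochondrial genes together with the coactivator PGC-1 alpha. Its levels were tight in sham, at 8.64, 8.68 and 8.61, and stood at 8.50, 8.36 and 8.27 after DJB. Every DJB value lay below the sham group, and the change of -0.27 ± 0.10 (SE) had an unadjusted p of 0.0230 but did not pass (adjusted p = 0.264, 95% interval -0.49 to -0.05). Pparg, Esrra and Nr1i3 were thus the 3 receptors with an unadjusted p under 0.05, against 14.3% of all genes. The 95% intervals of the 9 receptors other than Nr1i3 lay within a 2-fold change in either direction.

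Genes that work with the receptors, or are known to respond to them, were read from the same fit in 7 lists with 131 measured genes. Of these, 8 passed the test, 3 higher and 5 lower after DJB, where 0.772% of all genes passed, 0.393% higher and 0.379% lower. The counts per list are set beside these shares and those of all genes with an unadjusted p under 0.05 (14.3%) or a lower mean (38.3%). The lists come from general knowledge and were chosen with earlier results of these data known, so their counts beside these shares are a description. Some genes are in more than 1 list, and many answer to other factors as well.

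**Figure D3:**
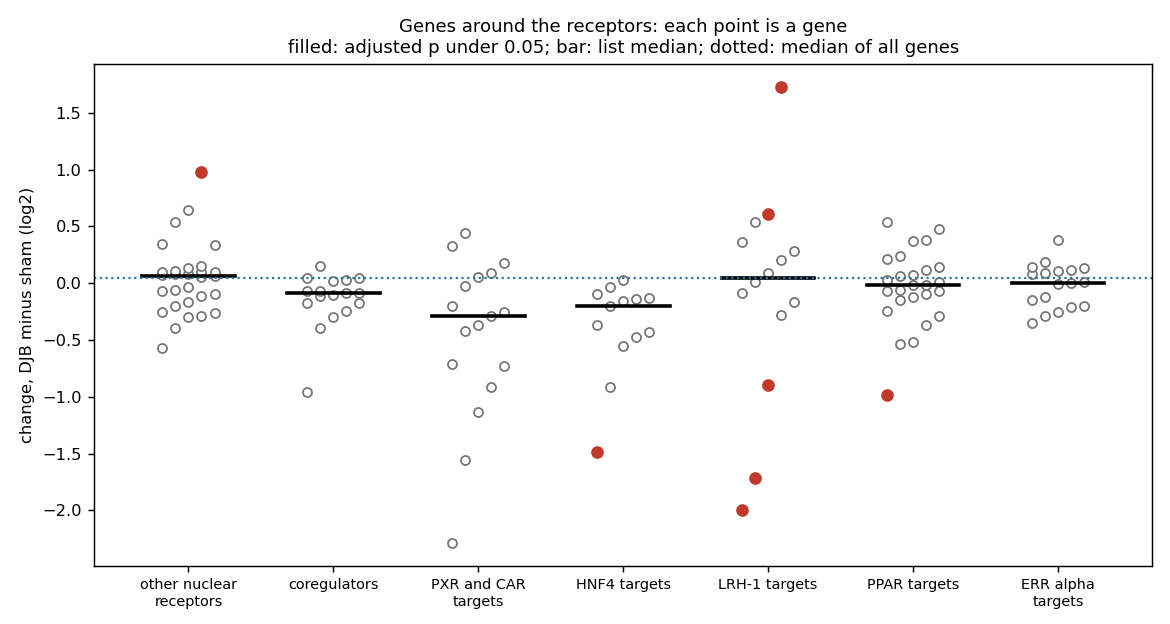
Change of each gene in the 7 lists in log2 units (DJB minus sham), with filled points for an adjusted p under 0.05, a bar at each list's median and a dotted line at the median of all genes (0.05). The PXR and CAR targets have the lowest median, -0.29, and the LRH-1 targets hold 5 of the filled points.

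In the list of PXR and CAR targets, 0 of 17 measured genes passed in limma and 9 had an unadjusted p under 0.05, against 14.3% of all genes. Of the 17, 12 had a lower and 5 a higher mean after DJB, against 38.3% of all genes with a lower mean. The median change was -0.29. Slco1a4 and Cyp2c6v1, both among the 9 and both without overlap, are dim rows, at 3.95 and 3.71 in sham and 4.28 and 3.46 after DJB. Cyp2b1 and Cyp2b2 encode the phenobarbital-inducible cytochromes by which CAR activity is usually read, and Cyp2b1 was named after its values were seen. Cyp2b1 stood at 6.38, 9.29 and 8.35 in sham and at 6.05, 6.07 and 5.03 after DJB. Its sham arrays were widely spread, with sham 1 only just above the DJB group, and the change was -2.29 ± 0.62 (SE, adjusted p = 0.155). Cyp2b2 stood at 5.91, 7.98 and 6.84 in sham and at 5.30, 5.65 and 5.12 after DJB, a change of -1.56 ± 0.42 (SE, adjusted p = 0.154). It shared the low sham 1 value and the high sham 2 value of Cyp2b1.

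Cyp2b1 and Cyp2b2 are near-identical copies, so probes of one can take up RNA of the other, and they are not independent readings. Probe and transcript sequences were not compared. The upstream DNA of the pair is also alike: of 233 aligned bases before the start, 225 were identical (96.6%). The 8 that differ are in capitals. The pair was aligned at the offset with the smallest share of mismatches, 17 bases. The Cyp2b2 stretch thus ends 17 bases before its annotated start. The GRCr8 stretches are chr1:90645886-90646118 for Cyp2b1 and chr1:90722031-90722263 for Cyp2b2, both on the plus strand.
Cyp2b1: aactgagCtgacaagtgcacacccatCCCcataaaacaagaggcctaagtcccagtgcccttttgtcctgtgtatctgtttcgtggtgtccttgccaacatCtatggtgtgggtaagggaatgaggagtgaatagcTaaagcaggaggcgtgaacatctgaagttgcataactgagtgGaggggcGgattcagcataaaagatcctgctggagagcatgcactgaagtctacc
Cyp2b2: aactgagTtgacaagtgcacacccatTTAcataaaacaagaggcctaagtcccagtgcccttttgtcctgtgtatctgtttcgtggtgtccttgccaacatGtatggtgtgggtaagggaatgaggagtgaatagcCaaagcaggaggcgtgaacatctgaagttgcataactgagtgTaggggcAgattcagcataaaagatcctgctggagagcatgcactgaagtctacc
Among the other PXR and CAR targets, the apical export pump gene Abcc2 stood at 7.76, 8.59 and 8.71 in sham and at 7.64, 7.22 and 6.81 after DJB. As with the Cyp2b genes, sham 1 was the lowest sham array and the groups did not overlap. The change of Abcc2 was -1.13 ± 0.27 (SE, adjusted p = 0.121), and the glutathione transferase gene Gstm1 differed by -0.73 ± 0.19 (SE, adjusted p = 0.144). Alas1, which starts haem synthesis, differed the other way by 0.45 ± 0.12 (SE, adjusted p = 0.143). Without sham 1, Cyp2b1, Cyp2b2 and Abcc2 were each called lower, at -3.10, -2.06 and -1.43 (adjusted p = 0.0116, 0.0305 and 0.0345). Without sham 2 the changes of Cyp2b1 and Cyp2b2 were -1.64 and -1.02 (adjusted p = 0.277 and 0.224), and without any other 1 array these genes and Abcc2 did not pass either.

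**Figure D4:**
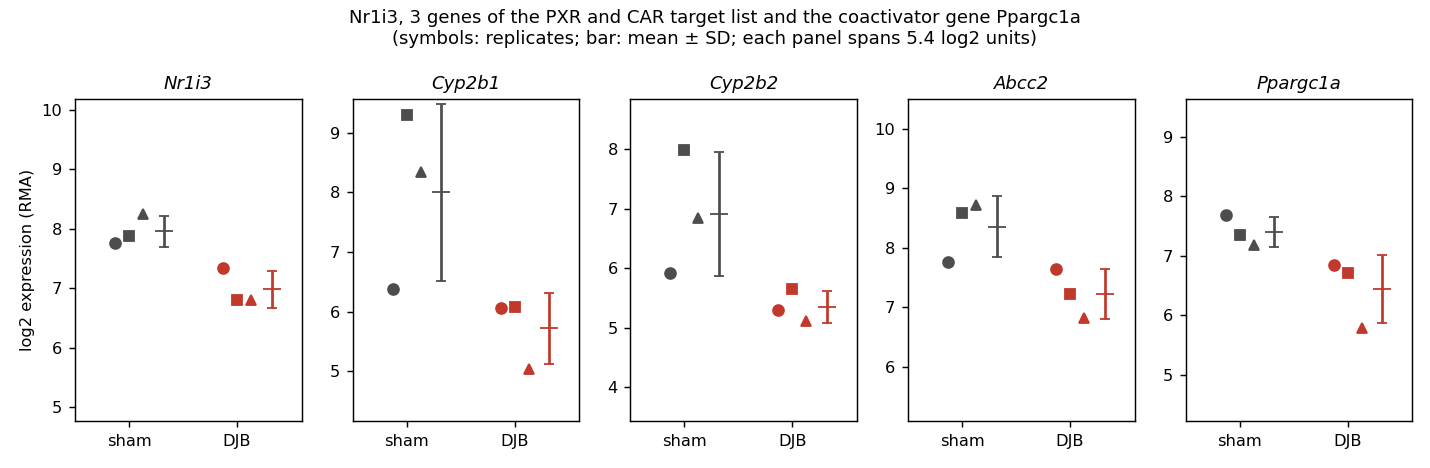
Log2 expression of Nr1i3, of the PXR and CAR targets Cyp2b1, Cyp2b2 and Abcc2, and of the coactivator gene Ppargc1a on each array, with the mean ± SD beside each group. In all 5 genes every DJB value lies under every sham value, and sham 1 is the lowest sham array in each of them but Ppargc1a. Of the 17 measured targets, 5 were lower and 2 higher without overlap, against 6.56% and 14.5% of all genes. The 3 targets shown are among the lower ones, and Alas1, not shown, is among the higher ones.

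Among 13 HNF4 target genes, 12 had a lower mean after DJB, against 38.3% of all genes, and 1 fell, against 0.379% of all genes. The list median was -0.20. Apoc3, an apolipoprotein gene and a standard HNF4 target, stood at 10.36, 10.87 and 10.99 in sham and at 9.55, 9.22 and 8.98 after DJB. The groups were far apart, and the change was -1.49 ± 0.19 (SE, adjusted p = 0.0102). Creb3l3, a transcription factor of lipoprotein metabolism, differed by -0.56 ± 0.16 (SE, adjusted p = 0.171), and Cideb, which acts in lipoprotein lipidation, by -0.43 ± 0.13 (SE, adjusted p = 0.194). Apoc3 was no longer called when sham 2, sham 3 or DJB 2 was left out (adjusted p 0.0564 to 0.0605).

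Of 14 genes listed as LRH-1 targets, 2 rose and 3 fell, against 0.772% of all genes called, and the list median was 0.05. Whether each of them, Slc10a2 included, answers to LRH-1 in the rat was not tested. Abcg5 and Abcg8, whose products together export sterols, both fell. Abcg5 stood at 9.02, 9.48 and 9.63 in sham and at 8.23, 6.89 and 7.02 after DJB, with a 95% interval of the change from -2.72 to -1.28 (limma adjusted p = 0.0289). Abcg8 changed by -1.72 ± 0.24 (SE, adjusted p = 0.0181). Scarb1, a lipoprotein receptor gene, stood at 7.85, 7.95 and 8.05 in sham and at 7.21, 6.91 and 7.04 after DJB. It fell by 0.90 ± 0.11 (SE, adjusted p = 0.00986). The bile acid transporter gene Slc10a2 rose by 1.73 ± 0.22 (SE, adjusted p = 0.0106) and the export pump gene Abcc3 by 0.61 ± 0.10 (SE, adjusted p = 0.0289), so the members went in both directions. With 1 array left out in turn, Slc10a2 was called each time, though not with a trended robust variance (adjusted p = 0.0511), and Scarb1 each time but without sham 3 (adjusted p = 0.0545). Abcg5 and Abcg8 were called only without sham 1 or DJB 1, with adjusted p otherwise reaching 0.142 and 0.0942, and Abcg5 was not called with a trended robust variance (adjusted p = 0.127). Abcc3 was never called with an array left out (0.0718 to 0.113).

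Of 26 PPAR target genes, 1 fell, against 0.379% of all genes, 14 had a lower and 12 a higher mean, and the median was -0.02. Cd36, a fatty acid receptor gene, stood at 11.10, 10.97 and 11.12 in sham and at 10.37, 10.12 and 9.75 after DJB. It fell by 0.98 ± 0.15 (SE, adjusted p = 0.0252), and was not called when a sham array or DJB 2 was left out (adjusted p 0.0826 to 0.119). The next 3 genes of the list by p did not pass in the fit as reported. Cpt1a and Cpt2, which carry fatty acids into mitochondria, were higher by 0.47 ± 0.10 (SE, adjusted p = 0.0812) and 0.54 ± 0.11 (SE, adjusted p = 0.0641), and Hadhb, of the oxidation enzymes, by 0.37 ± 0.10 (SE, adjusted p = 0.149). In each of these 3 genes all DJB values lay above all sham values. Cpt1a and Cpt2 were called with dim rows left out (adjusted p = 0.0319 and 0.0264), and all 3 with a trended robust variance (adjusted p = 0.0157, 0.0147 and 0.0452). Of other oxidation genes of the list, 5 named after their values were seen differed little in mean, with Acaa2 at 0.03, Acadvl at 0.06, Decr1 at -0.06, Ech1 at -0.07 and Ehhadh at -0.07, and their groups overlapped. Hadha and Acadm, oxidation genes too, were higher by 0.22 and 0.38 without overlap (limma adjusted p = 0.319 and 0.234). In the list, 5 genes were higher and 4 lower without overlap, against 14.5% and 6.56% of all genes. Beside Cd36, the lower ones were Cyp4a1 at -0.52, Cyp4a3 at -0.37 and Fabp1 at -0.24.

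Of 18 ERR alpha targets, 0 passed in limma and 3 had an unadjusted p under 0.05, near the 14.3% of all genes. Of the 18, 9 were higher and 9 lower in mean, and the median was 0.00. The mitochondrial malate dehydrogenase gene Mdh2 differed by -0.35 ± 0.11 (SE, adjusted p = 0.191) and Cs, citrate synthase, by -0.25 ± 0.09 (SE, adjusted p = 0.264). Acadm, which oxidises medium-chain fatty acids and is also in the PPAR list, differed by 0.38 ± 0.13 (SE, adjusted p = 0.234). Cox5b, a subunit of cytochrome oxidase, differed by -0.29 ± 0.13 (SE, adjusted p = 0.366).

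Of 17 coregulator genes, 0 passed in limma and 2 had an unadjusted p under 0.05, near the 14.3% of all genes. Of the 17, 12 were lower in mean, against 38.3% of all genes, and the median was -0.08. Ppargc1a, which encodes PGC-1 alpha, stood at 7.68, 7.35 and 7.19 in sham and at 6.84, 6.71 and 5.80 after DJB. Its groups did not overlap, DJB 3 lay far under the other arrays, and the change was -0.96 ± 0.25 (SE, adjusted p = 0.152). The repressor gene Prox1 differed by -0.39 ± 0.14 (SE, adjusted p = 0.264), and the coactivator genes Ep300 and Ncoa4 by -0.24 ± 0.11 (SE, adjusted p = 0.362) and -0.30 ± 0.15 (SE, adjusted p = 0.406).

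Among 29 other nuclear receptor genes, 16 were higher and 13 lower in mean, the median was 0.07, and 1 rose, against 0.393% of all genes. That was Nr1h4, the gene for the bile acid receptor FXR, at 8.50, 8.48 and 8.55 in sham and 9.35, 9.87 and 9.25 after DJB. It rose by 0.98 ± 0.15 (SE, adjusted p = 0.0275), and was not called when a sham array was left out (adjusted p 0.0931 to 0.113). Thra, a thyroid hormone receptor gene, differed by -0.57 ± 0.15 (SE, adjusted p = 0.152), Nr1h3, which encodes the oxysterol receptor LXR alpha, by -0.40 ± 0.11 (SE, adjusted p = 0.172), and Nr4a1, an early response gene, by 0.65 ± 0.23 (SE, adjusted p = 0.244).

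Markers of intestinal regions, dividing cells and macrophages lay apart between the groups as list means, and most other cell type lists overlapped. The 5 markers of the upper small intestine averaged 7.95 to 8.08 on the sham arrays and 7.03 to 7.52 on the DJB arrays, with 3 lower and 2 higher in mean. Among them S100g, a calcium-binding protein gene, fell by 1.10 ± 0.13 (SE, adjusted p = 0.00938) whichever array was left out. Slc46a1, a folate transporter gene, fell by 2.38 ± 0.29 (SE, adjusted p = 0.00986). That call ended without sham 3 or DJB 2 (adjusted p = 0.0577 and 0.0519). Gata4 differed by -1.18 ± 0.23 (SE, adjusted p = 0.0643) and, the other way, Slc40a1 by 0.49 ± 0.09 (SE, adjusted p = 0.0530), each without overlap. Cybrd1 was higher by 0.18, with overlap. The 3 distal ileum markers were higher in mean, 1 of them, Slc10a2 of the LRH-1 list, past the test, with Fabp6, a bile acid binding protein gene, at 0.30 ± 0.10 (SE, adjusted p = 0.230). The 8 enterocyte markers went both ways, 4 higher and 4 lower with none past the test, with Epcam at 0.21 ± 0.09 (SE) and Fabp2 at -0.13 ± 0.09 (SE). The 4 macrophage markers averaged 7.73 to 7.78 in sham and 8.01 to 8.28 after DJB, and none of the 4 passed in limma, all 4 with an unadjusted p under 0.05. The 3 measured markers of dividing cells averaged 8.59 to 8.68 and 8.99 to 9.34. Among them the cyclin gene Ccnb1 rose by 0.60 ± 0.11 (SE, adjusted p = 0.0497), while the replication gene Mcm5 differed by 0.62 ± 0.12 (SE, adjusted p = 0.0585). Ccnb1 was never called with an array left out (adjusted p 0.0973 to 0.190), nor after repeated quantile normalisation or median centring (0.0623 and 0.0573). The 6 fibroblast markers lay at 8.93 to 9.29 and 9.09 to 9.65, the 6 smooth muscle markers at 10.47 to 10.99 and 10.83 to 11.09, the 5 T cell markers at 7.47 to 7.72 and 7.40 to 8.04, and the 3 B cell markers at 6.31 to 6.91 and 5.59 to 6.73. The goblet cell markers lay at 10.82 and 10.90 on sham 2 and sham 3, higher on sham 1, and at 10.73 to 10.85 after DJB. The crypt stem cell markers at 8.32 to 8.62 and 8.15 to 8.39, the endothelial markers at 7.11 to 7.12 and 6.91 to 7.33, the neuron and glia markers at 5.47 to 5.91 and 5.49 to 5.77, and the exocrine pancreas markers at 5.29 to 5.49 and 5.42 to 5.55. The part of these shifts in the receptor differences was not tested.

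**Figure D5:**
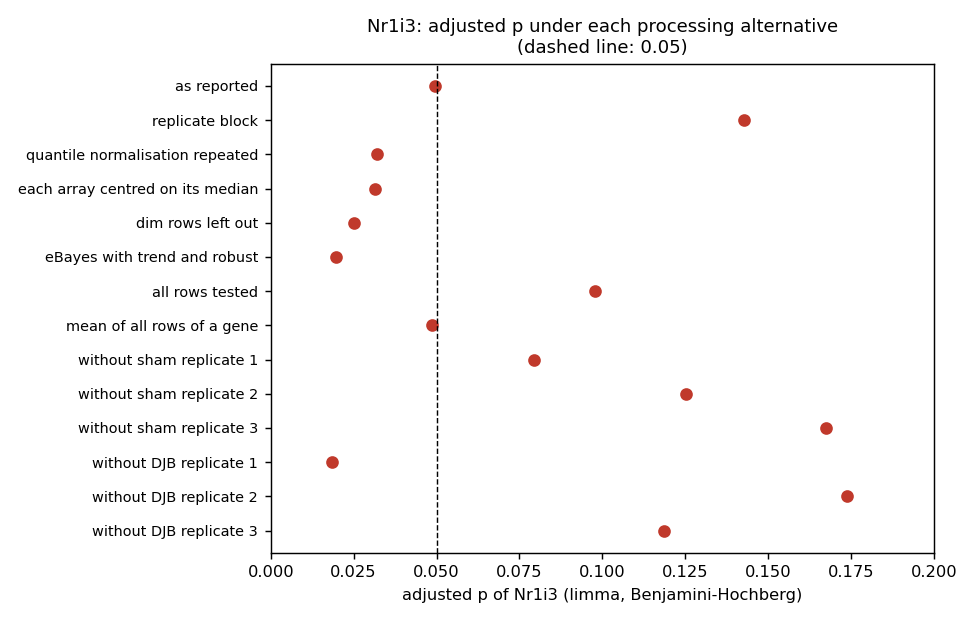
Adjusted p of Nr1i3 as reported and under each of 13 processing alternatives, with a dashed line at 0.05. The values run from 0.0184 without DJB replicate 1 to 0.174 without DJB replicate 2, and 7 of the 13 lie above the line.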

How the data were processed

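Ileum RNA of 6 rats, 3 sham and 3 DJB, was measured on 1 array each, and separate rats are the replicates. The authors deposited log2 expression values made with RMA, per the submitters' processing notes, with the version not given in the sources used here. RMA corrects background, quantile normalises arrays and summarises probes, so shifts common to most genes are reduced and changes of dim rows are understated. A small common difference remained, with 61.7% of all genes higher in mean after DJB and a median change of 0.05. The shares of all genes given by direction carry it. With each array centred on its median, the median change was 0.02, and 53 genes were called higher and 73 lower, against 57 and 55 as reported. Of 29214 rows, 15310 carry 1 gene symbol in the platform annotation, 323 several and 13581 none. Rows with 1 symbol were used, and for the 527 genes with several rows the row with the highest mean, which left 14506 genes. All 10 receptor symbols are in the RefSeq gene table of GRCr8. The number of arrays limits the precision, and levels of different genes were not ranked: differences of a pair of genes within an array serve only to compare their changes, and the median of all rows only marks dim rows.

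DJB and sham were compared with limma 3.58.1 in R 4.3.3 (lmFit and eBayes, no covariate, two-sided, Benjamini-Hochberg adjustment over all genes tested, threshold 0.05). The fit was tested on simulated data. Sequences were searched in Python 3.11.15, and figures drawn with matplotlib 3.10.9. Genes named are the 10 receptors, the called genes of each related list or otherwise up to 4 of lowest p, up to 2 of lowest p in the marker lists of enterocytes, gut regions, adipocytes and dividing cells, the 3 genes closest to Nr1i3, and Cyp2b1. Further genes of the PPAR, adipocyte, upper small intestine and PXR and CAR lists were named after their values were seen. Members and lists were chosen with earlier results of these data known. The alternatives were a replicate block, repeated quantile normalisation, median centring, a filter on dim rows, a trended robust variance, all rows, mean of a gene's rows, and each array left out.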

Additional observations from a re-analysis of the deposited data

How the results depend on the processing

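Nr1i3 was lower after DJB under all 13 alternatives, with changes from -1.16 to -0.83, and stayed past the threshold under 6 of them. The number of receptors called went from 1 to 0 with the replicate number as a block (Nr1i3 adjusted p = 0.143) and with all rows tested, and was 0 to 1 with 1 array left out. The number of all genes called, 112, was 50 with the block, 225 with dim rows left out, 313 with a trended robust variance and 33 to 108 with 1 array left out. The 8 related genes called became 2 with the block, 4 with all rows tested and 1 to 9 with 1 array left out. They became 9 with median centring, 11 with dim rows left out and 12 with a trended robust variance. Same-numbered rats did not deviate together (correlations across genes of 0.0053, -0.12 and -0.15), and differently numbered rats gave -0.057 to 0.17. With values centred within groups of 3 arrays, this cannot settle whether the numbers pair samples. Receptors without overlap numbered 5 to 7. With an array left out, this count could not fall below 5, because dropping a value cannot make separate groups overlap. With 1 array left out, the change of Nr1i2 ran from -0.15 to 0.091, that of Ppara from -0.21 to 0.15, and that of Ppara relative to Ppard from -0.33 to 0.037. The other 7 receptors kept their direction under every alternative run and none of the 9 was called under any. Leaving out an array or dim rows changes how many arrays or genes enter the fit, and beyond that the cause was not tested. In the fit as reported, 3 receptors had an unadjusted p under 0.05. Settings that left out 1 array keep 2 in its group. Among the other named genes that were called, Nr1h4, Cd36, Abcg5, Abcc3, Appl2, Cgref1 and Ccnb1 were not called with the block or with all rows tested, nor Apoc3 and Abcg8 with the block, nor Abcg5, Slc10a2 and Slc46a1 with a trended robust variance (0.127, 0.0511 and 0.0561). Among those not called, Cpt1a, Cpt2, Apoa4 and Mcm5 were called with dim rows left out, these and Hadhb, Alas1 and Mdh2 with a trended robust variance, and Apoa4 with median centring.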
